A study of Mus musculus with 4 samples.

Results

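The genes described here encode the enzymes that add methyl groups to histone lysines and remove them, together with the related Prdm proteins. They were chosen by name from the deposited peak lists: symbols beginning with Kmt, Kdm or Prdm and a digit, Setd followed by a digit or b, Nsd and a digit, Ehmt1 or Ehmt2, and Suv39h, with Prdm14 left out. The rule took in 44 of the 9949 genes with a peak in any library and 354 peaks. The peaks were joined into 120 regions, a region being a stretch where exon blocks of peaks of one gene overlapped by at least 1 bp. RefSeq lists 56 protein-coding mouse genes with such names, so 12 had no peak in any list, among them the demethylase genes Kdm1b, Kdm4c, Kdm4d, Kdm5d, Kdm7a and Kdm8.

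The cells were mouse embryonic stem cells of strain C57BL/6N, and the readout was N6-methyladenosine (m6A), a methylated base found within RNA. Antibody-enriched fragments of total RNA were sequenced (MeRIP-seq), and 1 peak list was deposited for each of 4 libraries, 2 of wild type and 2 of Mettl5-/- (knockout) cells. One control title reads Ctr and the other WT, and both carry the wild type genotype. Nothing in the labels says whether libraries of a genotype came from separate clones or cultures, so their spread could be technical only. The growth and treatment labels also describe culture in suspension and in a neural medium, without tying either to a library; the sample source is given as embryonic stem cells throughout. Of 8 stem cell markers, Pou5f1, Sox2, Esrrb, Klf4 and Tdgf1 had a peak in all 4 libraries and Nanog, Zfp42 and Dppa5a in none, while of 5 neural markers Sox1 and Nes had a peak in all libraries, Pax6 and Tubb3 in some and Map2 in none. Of 5 feeder fibroblast markers Vim alone had a peak, in all libraries, and of 5 primitive endoderm markers Pdgfra had one in all libraries and Gata6 in some. A peak shows that an RNA was present and enriched, not how abundant it was. The lists held 10821 to 12699 peaks, knockout 1 having the most and knockout 2 the fewest, and the depth behind them is unknown.

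Lysine methylation of histone tails marks the state of chromatin: methylated H3K4 lies at promoters and enhancers, H3K36 along transcribed genes, and H3K9 and H3K27 in silenced chromatin. Most methyltransferases of these sites act through a SET domain, and most demethylases through a Jumonji domain; Kdm1a uses a flavin-dependent amine oxidase instead. In stem cells the balance of these enzymes keeps developmental genes silent but inducible and keeps retroelements off. The m6A of messenger RNA is placed by the Mettl3 and Mettl14 complex, typically in long internal exons and around stop codons, and it shortens the life of many transcripts. Mettl5, with its partner Trmt112, methylates 18S ribosomal RNA, so these messenger RNAs are not its known substrate.

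The sequences of 2 transcript starts are shown. The lists placed peaks of Kdm5c and Kmt2d over them, in the 5' untranslated region, where few of the members' peaks lay. Both are bases 21 to 50 after a RefSeq start site (GRCm38.p6), that of Kdm5c at chrX:152233247-152233276 on the plus strand and that of Kmt2d at chr15:98871156-98871185 on the minus strand, printed 5′ to 3′.
Kdm5c: acaaaccaagatggcggtggcagcggtgaa
Kmt2d: ttaaacccccgggggaagggtgaccactcc
The Kdm5c stretch lay wholly within the peak of 3 libraries (both wild-type libraries and knockout 2), and the Kmt2d stretch within a peak of knockout 2 alone. Neither holds GGAC, the core of the commonest m6A sequence context, on either strand, where it would stand in capitals. Only GGAC was searched, so its absence does not show that a stretch lacks every m6A context. The same window of Prdm16, which a peak of wild type 2 touched without covering it, holds GGAC once on the strand opposite to the transcript. Over the same 30 bases of 32851 RefSeq start windows, 11.7% hold it on the transcribed strand and 10.5% on the other. The peaks are wider than these windows, so nothing follows about the rest of a peak. The Kmt2d start is internal to the RefSeq gene, whose 5' end lies 2873 bp before the listed peak.

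Most of these transcripts carried a peak in every library. A peak was listed for 39 members in wild type 1, 37 in wild type 2, 38 in knockout 1 and 37 in knockout 2, and for 32 of the 44 in all 4 (72.7%, against 57.1% of all 9949 genes). The mean was 38 ± 1.41 members for the wild-type pair of libraries and 37.5 ± 0.707 for the knockout pair (SD, n = 2 each), a difference smaller than the spread between the wild-type libraries. With 2 libraries against 2, the smallest p of a two-sided exact permutation test is 1 in 3, so no difference between genotypes was tested in what follows. Wild type 1 listed 90 peaks of the members, wild type 2 listed 87, knockout 1 listed 94 and knockout 2 listed 83, or 0.740% to 0.777% of each list.

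Few members followed the genotype, and few did among all genes, so with 44 members little can be read from the counts. Setd3, which methylates a histidine of actin rather than a histone, was the 1 member listed by both wild-type libraries but by neither of the knockout ones (1.56% of all genes showed this pattern). Its peaks were weak, with folds of 4.34 and 8.51, each fold being the authors' enrichment of a peak over a background that the lists do not name. In the stronger 50% of each list Setd3 had no peak, and the 1 gene with this pattern was Kdm6a. No member (0 of 44) had a peak in both knockout libraries and neither wild-type library, a pattern of 2.27% of all genes. Of the remaining 11, 4 were in exactly 3 libraries (Kdm1a, Kdm6a, Nsd2 and Setdb2; 13.3% of all genes), 2 in 1 library of each genotype (Kdm3a and Setd7; 8.68%) and 5 in a single library (Ehmt2, Kdm2b, Nsd3, Suv39h1 and Suv39h2; 17% of all genes). A transcript missing from a list may still carry the mark.

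**Figure D1:**
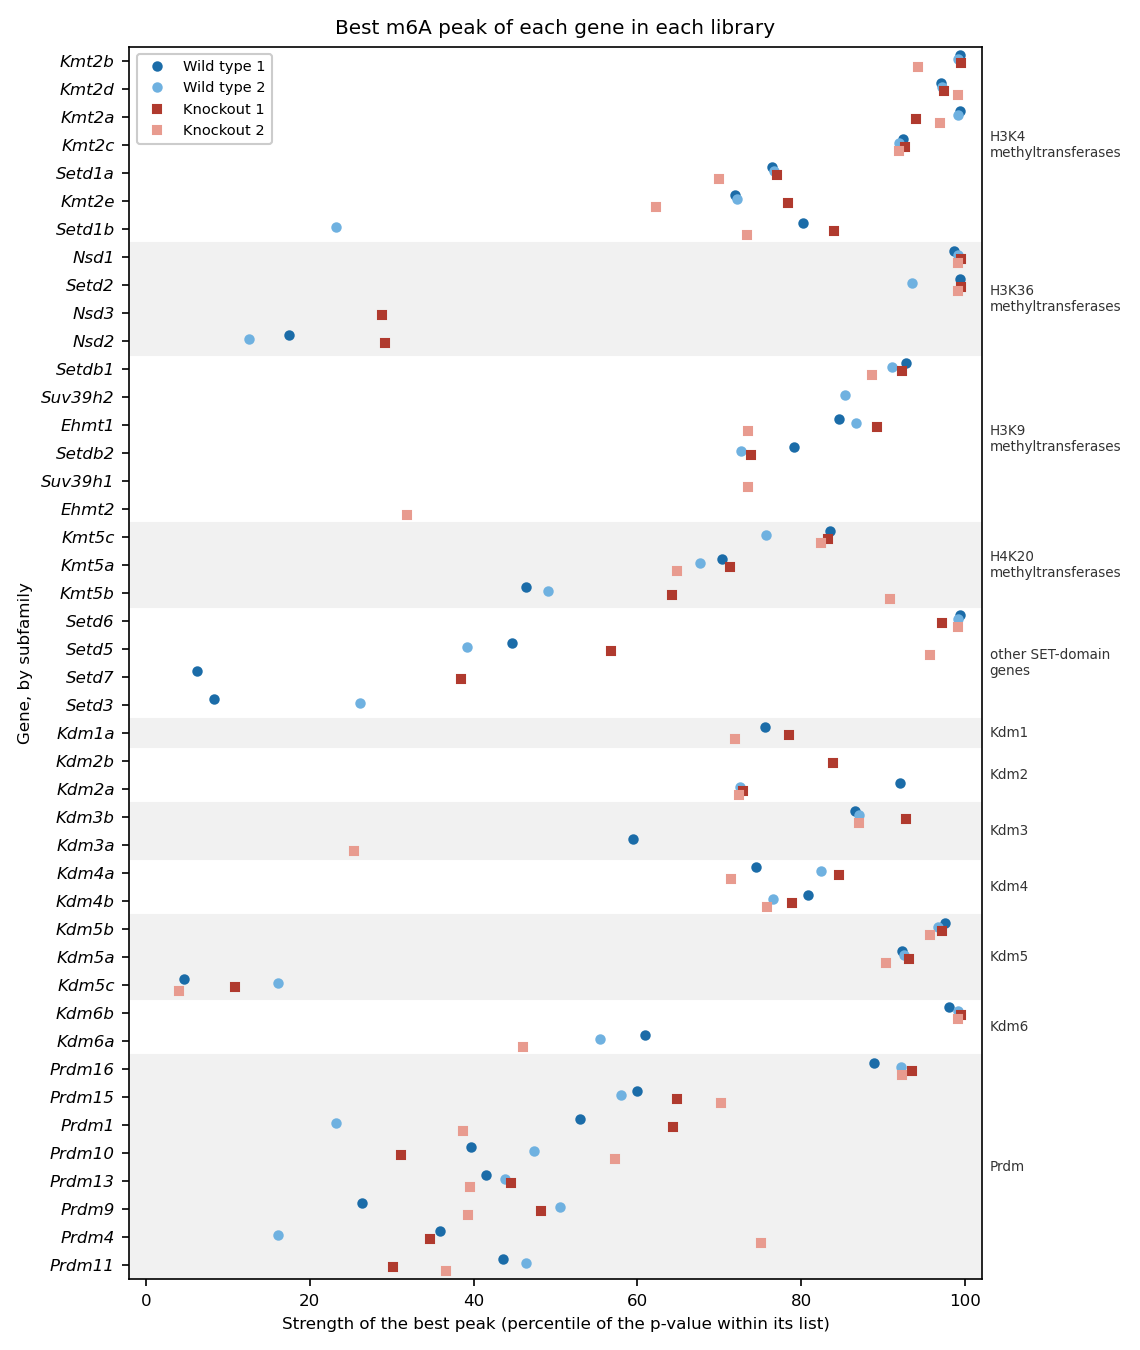
Strength of the best peak of each of the 44 genes, grouped by subfamily, as the percentile of its p-value within its own list. Higher is stronger, and p-values without a finite log10 tie just below 100. Circles are wild-type and squares knockout libraries, and a missing symbol means no listed peak. The 4 symbols of Nsd1, Kmt2c, Kdm5b and Kdm6b lie close together near the top of the scale, while the symbols of Setd5, Kmt5b, Prdm4 and Setd1b are spread over much of it.

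Strength below is a percentile: the place of a peak's p-value among all those of the same list, higher for a smaller p-value. A gene is represented by its strongest peak, and where 4 values follow each other they belong to wild type 1, wild type 2, knockout 1 and knockout 2, in that order. P-values too small for a finite log10 tie at the top of each list, at 99.4, 99.1, 99.5 and 99.1. Differences between these top values are not differences in strength. The median best peak of the members was at the 76.4th, 75.7th, 78.7th and 73.6th percentile, where the median over all genes of each list was 59.1 to 59.9. Over all peaks of the members, not only the best, the median was 64.2, 62.6, 69.9 and 68.4. By genotype that was 63.4 ± 1.09 for wild type and 69.2 ± 1.03 for the knockout (SD, n = 2 each), a difference that was not tested. The median of the best peaks was 76.1 ± 0.475 for wild type and 76.1 ± 3.65 for the knockout (SD, n = 2 each). In these libraries 12, 12, 13 and 13 members had a peak in the strongest 10% of the list (13.9%, 13.8%, 14% and 13.8% of all genes of each list, against 30.8%, 32.4%, 34.2% and 35.1% of the members present). Of these, 10 reached that level in all 4 libraries: Kmt2a, Kmt2b, Kmt2c, Kmt2d, Nsd1, Setd2, Setd6, Kdm5a, Kdm5b and Kdm6b. By the mean over libraries, 12 of the 32 members found in all 4 were at 90 or more (37.5%; 15.2% of all genes found in all 4). Beside the 10 members strong in all libraries, 6 were in the strongest 10% in some of them: Setdb1, Prdm16, Kdm3b, Kdm2a, Kmt5b and Setd5. Members also had more peaks from which the best was taken: 2.31, 2.35, 2.47 and 2.24 per member, against 1.49 to 1.52 per gene. The RefSeq span of the members, introns included, was long too, with a median of 56.3 kb. Over the 8247 genes of the lists found in RefSeq by symbol it was 23.5 kb. The part of peak number or gene length in the best-peak values and shares was not tested.

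The members' peaks lay more often in coding sequence than the peaks of the whole lists, though not in every subfamily. Coding sequence, start and stop codons included, held 52.2%, 54.0%, 53.2% and 56.6% of the members' peaks, where it held 35.6%, 35.7%, 33.7% and 36.5% of all peaks. The 3' untranslated region held 33.3%, 31.0%, 33.0% and 27.7% of the members' peaks, and 38.2% to 38.7% of all peaks. Exons given no finer class held 8.43% to 9.20%, against 20.9% to 22.7%, and the 5' untranslated region 5.32% to 7.23%, against 4.31% to 4.88%. In each library the coding share of the members was thus above that of the list. The shares of the 3' untranslated region and of unclassified exons were below those of the list. Members differ in their number of peaks, so a few genes with many peaks weigh most. Over the 4 libraries coding sequence held 77.2% of 127 H3K4 methyltransferase peaks and 72.7% of 33 H3K36 methyltransferase peaks. The smaller Kdm6, other SET-domain and Kdm3 groups had 70.0%, 62.5% and 58.3%. The share was 33.3% or less in the Prdm, H4K20, H3K9, Kdm4, Kdm5, Kdm2 and Kdm1 groups.

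**Figure D2:**
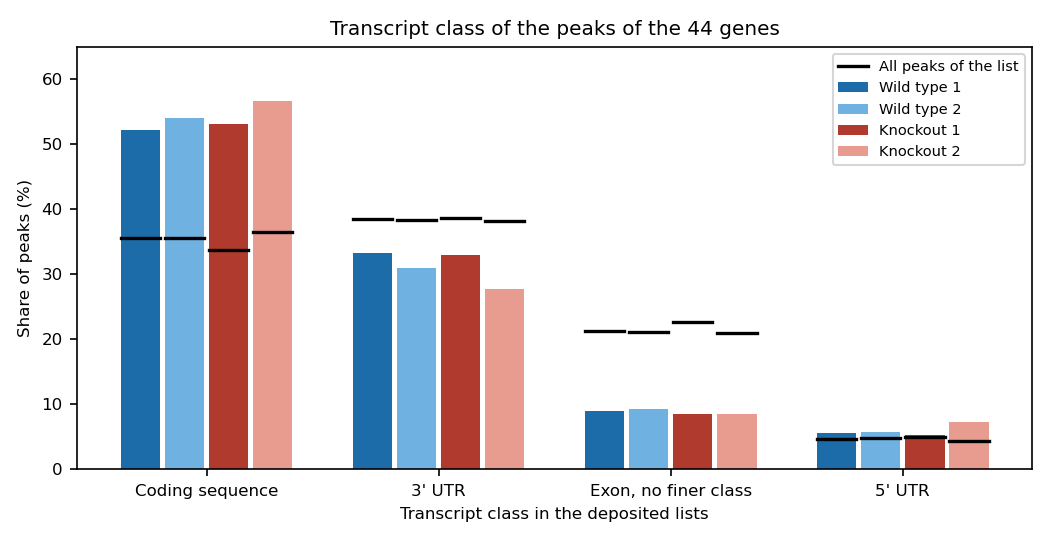
Share of the peaks of the 44 genes in each transcript class, in percent, with 1 bar per library; the black line over each bar is the share among all peaks of the same list. The bars for coding sequence stand between 52.2% and 56.6%, all above their lines, and those for the 3' untranslated region between 27.7% and 33.3%, all below.

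The genotypes did not part in these shares. The coding share of the members' peaks was 53.1% ± 1.27 for wild type against 54.9% ± 2.43 for the knockout, and that of the 3' untranslated region was 32.2% ± 1.63 against 30.3% ± 3.72 (SD, n = 2 each). Both differences were within the SD of the knockout pair.

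The H3K4 methyltransferases carried the most peaks. All 7 of them had a peak in every library, with 37 regions and 127 peaks, 98 of the peaks in coding sequence, 21 in the 3' untranslated region and 8 in the 5' untranslated region. They work as the catalytic subunits of large complexes: Kmt2a and Kmt2b (MLL1 and MLL2) at selected promoters, Kmt2c and Kmt2d mainly at enhancers, and Setd1a and Setd1b at active promoters in general. Kmt2e belongs to the family by sequence and is not known as an active methyltransferase.

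Kmt2d had 9 regions, the most of any member, and 6 of them were found in all 4 libraries. Its best peak was at the 97.0th, 97.2nd, 97.4th and 99.1st percentile. The strongest regions covered coding exons at chr15:98842039-98847416 and chr15:98849424-98851702 (mm10, minus strand), with exon blocks of up to 2952 and 1778 bp. In the second of them the folds were 511, 618, 912 and 284. A weaker region of the 3' untranslated region, at the 61.9th, 50.3rd, 71.3rd and 30.1st percentile, was shared by all libraries too. The 5' untranslated region had a peak in knockout 2 alone, at a fold of 26.9, over the stretch printed above.

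Kmt2a had 8 regions, 4 of them in all libraries. The long coding region at chr9:44818946-44821284, a single block of 2309 bp in knockout 2, 1 peak of 1500 bp in wild type 1 and 2 separate peaks in wild type 2 and knockout 1, was at the 94.1st, 93.6th, 94.0th and 93.8th percentile. In the 3' untranslated region, 2 shared regions lay at 69.9 to 76.3 and at 75.6 to 80.9. The strongest region of all, at chr9:44847030-44849202 in coding sequence, was found in 3 libraries only: it was at the 99.4th percentile in wild type 1, the 99.1st in wild type 2 and the 96.9th in knockout 2, and knockout 1 listed no peak there. Knockout 1 did list peaks in the other regions of the gene, its best at the 94.0th percentile. No peak of another gene overlapped the region in any library.

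Kmt2b showed the same kind of gap in both genotypes. A region at chr7:30582502-30588666, spanning up to 10 exon blocks, was at the 99.4th, 99.1st and 99.5th percentile in wild type 1, wild type 2 and knockout 1, each with a p-value too small for a finite log10. In knockout 2 the only peak there was 181 bp long, at the 33.6th percentile and a fold of 5.48. The region at chr7:30574465-30576012 was at the 96.2nd, 96.3rd and 94.2nd percentile in wild type 2, knockout 1 and knockout 2 and had no peak in wild type 1. So wild type 1 lacked 1 strong region of the gene and knockout 2 held only a small weak peak in the other.

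The enhancer enzyme Kmt2c was the most even of the group. Its best peak, in coding sequence at chr5:25284278-25285027, was at the 92.4th, 91.9th, 92.7th and 91.9th percentile, with folds of 957, 188, 415 and 350. Regions at chr5:25299708-25300547 and chr5:25310161-25310940 followed at 84.7 to 89.8 and at 89.1 to 91.4. A small region beside the latter, at chr5:25309801-25310101, was the 1 member region found in both knockout libraries and in neither wild-type library (2.49% of all regions showed this pattern); it was weak, at the 12.6th and 5.68th percentile. It was no longer called with lists of equal length, with peaks within 100 bp joined or in the stronger 50% of each list.

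Setd1a, Kmt2e and Setd1b had weaker best peaks. Setd1a was at 76.4, 76.7, 77.1 and 69.9 in a coding region of up to 7 exon blocks; in 3 of the libraries a peak listed for AC149222.1, a gene model on the same strand, overlapped it, so the assignment of that region is uncertain. Setd1a also had a short peak in its 5' untranslated region in every library, at folds of 3.98 to 15.2 and upstream of the RefSeq start. Kmt2e was at 72, 72.2, 78.4 and 62.3, with 4 of its 5 regions in all libraries and lying toward the 3' end. Setd1b was at 80.3, 23.2, 83.9 and 73.3: wild type 2 lacked the strong coding region, at chr5:123146571-123148743, that the other 3 libraries shared.

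**Figure D3:**
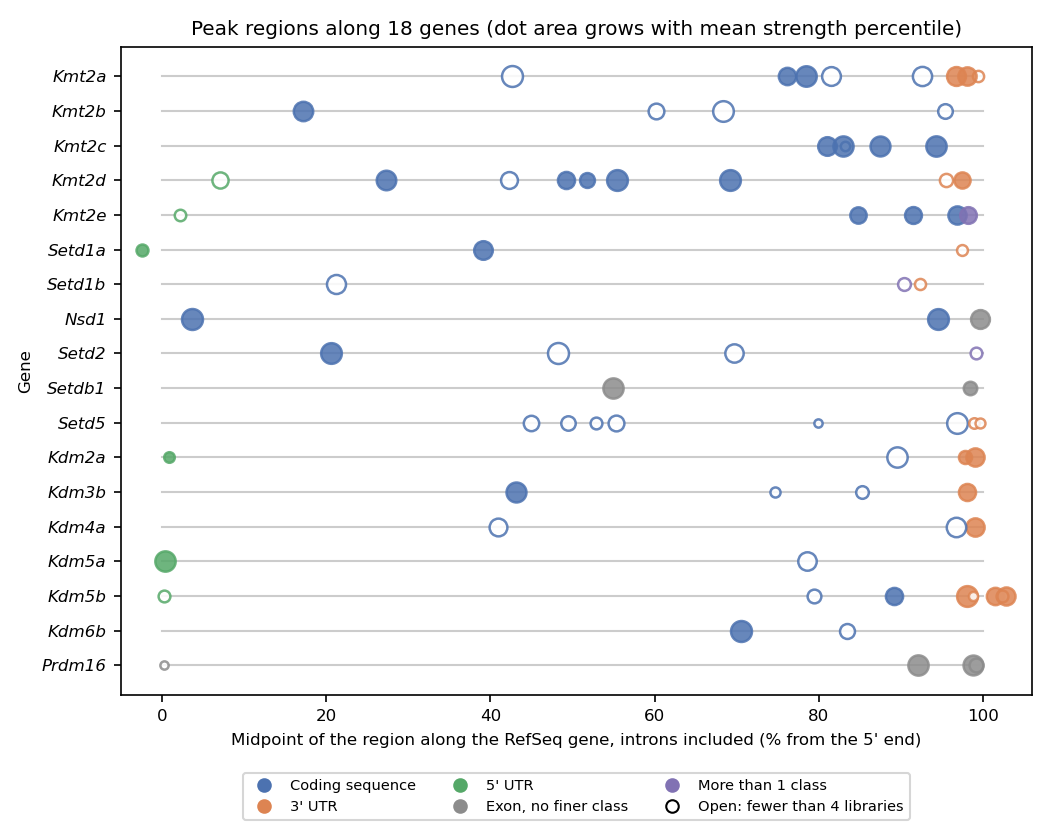
Position of the peak regions along 18 genes, as the midpoint of each region in percent of the RefSeq gene from its 5' end, introns included; colour gives the transcript class, dot area grows with the mean strength percentile, and open dots had no peak in at least 1 library. Kmt2c and Kmt2e have their shared regions beyond 80% of the gene, Kdm5a has its shared region at the 5' end, and Kdm5b has 2 shared regions beyond the RefSeq 3' end.

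Among the H3K36 methyltransferases, the division was between Nsd1 and Setd2 on one side and Nsd2 and Nsd3 on the other. Nsd1, which makes the dimethyl mark, was at the 98.6th, 99.1st, 99.5th and 99.1st percentile, the highest mean of all members (99.1). All 3 of its regions were in all libraries: one 1110 bp block in an early coding exon at chr13:55213208-55214317, a coding region with a block of up to 2369 bp at chr13:55310361-55314487, and a region at the 3' end. The folds in the first were 987, 295, 945 and 574. Nsd2, a paralog, had a peak in 3 libraries at 17.5, 12.6 and 29.2 (none in knockout 2), and Nsd3, the third paralog, one in knockout 1 alone at 28.9.

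Setd2, which makes the trimethyl mark of H3K36 along transcribed genes, was at 99.4, 93.6, 99.5 and 99.1. Its coding region at chr9:110547217-110553168 was shared by all libraries, at 93.7, 93.6, 99.5 and 97.9. That region held the longest exon block of the members, 3320 bp. A coding region at chr9:110570734-110577295 was at the 99.4th and 99.1st percentile in wild type 1 and knockout 2 and was absent from the lists of wild type 2 and knockout 1. That pattern has 1 library of each genotype.

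The H3K9 methyltransferases, which silence genes, satellite repeats and retroelements, were found in all libraries in 2 cases of 6 and in a single library in 3. Setdb1, which silences retroviral elements in stem cells, had a strong region of 630 bp or less at chr3:95338379-95339008 at 92.8, 91.1, 92.2 and 88.6, and a weak one near its 3' end at 19.3 to 45.6. Ehmt1 had a single region, in the 3' untranslated region at chr2:24791006-24792414, at 84.5, 86.7, 89.2 and 73.6. Its partner in one complex, Ehmt2, had a peak in knockout 2 alone, at 31.8 and a fold of 18.7. The paralogs Suv39h1 and Suv39h2, which act at pericentromeric repeats, each had 1 peak in 1 library: Suv39h1 in coding sequence in knockout 2 at 73.5 and a fold of 145, Suv39h2 in the 3' untranslated region in wild type 2 at 85.3 and a fold of 308. Setdb2 was at 79.1, 72.7 and 73.9 in wild type 1, wild type 2 and knockout 1 and had no peak in knockout 2. A second region of Setdb2, at chr14:59409220-59409640, was in the wild-type libraries alone, at 49.3 and 59.8.

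All 3 H4K20 methyltransferases had a peak in every library. Kmt5a, which makes the monomethyl mark during the cell cycle, was at 70.4, 67.7, 71.3 and 64.9 in a region classed as 3' untranslated in 3 libraries and as unclassified exon in knockout 1. Its relative Kmt5c, which adds further methyl groups, was at 83.6, 75.7, 83.3 and 82.4 over its 3' untranslated region. Kmt5b, the paralog of Kmt5c, was at 46.4, 49.1, 64.2 and 90.8. The high value of Kmt5b in knockout 2 came from a region of 2069 bp at chr19:3814137-3816205 with a fold of 453, in which no other library had a peak; in the shared coding region knockout 2 was at 33.1, below the other 3 libraries.

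The other SET-domain genes ranged from very even to uneven. Setd6, which methylates the NF-kappaB subunit RelA, had a coding region with the same edges in all 4 libraries (chr8:95717947-95719010) at 99.4, 99.1, 97.1 and 99.1. Setd5 had 8 regions and none of them was in all libraries, although the gene had a peak in each; its best peaks were at 44.7, 39.2, 56.7 and 95.8. The last was a coding region at chr6:113150156-113151936 listed in knockout 2 alone, at a fold of 394. Setd7, an enzyme that acts on histones and on other proteins, had weak peaks in wild type 1 and knockout 1, at 6.25 and 38.4. Setd3, described above, was at 8.34 and 26.2 in the wild-type libraries.

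Among the demethylases, the Kdm5 genes, which remove methyl groups from H3K4, placed their strongest peaks at opposite ends of the transcript. Kdm5a had a region in its 5' untranslated region, beginning 25 bp after the RefSeq start at chr6:120364124-120364664, at 92.2, 92.6, 93.1 and 90.4 with folds of 137, 214, 159 and 95.6. Kdm5b had its strongest region in the 3' untranslated region, at chr1:134631117-134631866, at 97.5, 96.7, 97.2 and 95.8 with folds of 260, 385, 673 and 163. Its 8 regions included 4 shared by all libraries, of which 2 lay beyond the RefSeq 3' end of the gene. Kdm5c had only a weak peak at its start, over or just after the stretch printed above, at 4.61, 16.2, 10.9 and 4.02, the weakest of the members found in all libraries.

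The H3K27 demethylases differed as well. Kdm6b (JMJD3) was at 98, 99.1, 99.5 and 99.1 in a coding region at chr11:69403608-69406286, and in 3 of the libraries the p-value had no finite log10. The folds were 322, 755, 619 and 214. Kdm6a (UTX), its X-linked paralog, had 1 region in the 3' untranslated region at 60.9, 55.4 and 46.0 in wild type 1, wild type 2 and knockout 2, and none in knockout 1.

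The remaining demethylases carried mostly intermediate peaks. Kdm3b, which acts on H3K9, was at 86.6, 87.0, 92.8 and 87.0 in coding sequence, with a second shared region in the 3' untranslated region at 59.5 to 63.4; its paralog Kdm3a had a peak in wild type 1 at 59.4 and in knockout 2 at 25.4 only. Kdm4a, of a group acting on H3K9 and H3K36, was at 74.4, 82.4, 84.6 and 71.4. The values of wild type 2 and knockout 1 came from a coding region that the other libraries did not list. The shared Kdm4a region, in the 3' untranslated region, was at 74.4, 62.6, 80.4 and 71.4. Kdm4b, its paralog, was at 80.8, 76.6, 78.9 and 75.9 with both of its regions in the 3' untranslated region and in all libraries. Kdm2a, an H3K36 demethylase, was at 92.1, 72.6, 72.9 and 72.4. The higher value in wild type 1 came from a coding region at chr19:4322778-4326852 with a fold of 112 that no other library listed, while the stronger of its 2 shared regions in the 3' untranslated region was at 68.5 to 72.9 and the weaker at 15.8 to 50.3. Kdm2b, which brings a Polycomb complex to CpG islands, had 1 coding peak in knockout 1, at 83.8 and a fold of 11.4. Kdm1a (LSD1), which acts mainly on H3K4, had one 330 bp region at chr4:136550600-136550929 with identical edges in wild type 1, knockout 1 and knockout 2, at 75.6, 78.6 and 72, and no peak in wild type 2.

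The Prdm genes, zinc finger proteins with a PR domain related to SET, had weaker peaks. All 8 were found in every library, with a median of mean percentiles of 43.2, where the median over all 5683 genes found in every library was 66.4 and that over the 32 members was 78.1. Prdm16, a regulator of brown fat and blood stem cells, stood above the rest at 88.8, 92.2, 93.5 and 92.3, in an unclassified exon region at chr4:154341018-154342097. Prdm15, which supports naive pluripotency, lay between 58 in wild type 2 and 70.2 in knockout 2, in its 3' untranslated region. Prdm1 (BLIMP1), a repressor that specifies germ cells, was at 53.0, 23.2, 64.4 and 38.8, and a second region of it, at chr10:44441733-44442122, was in the wild-type libraries alone at 33.5 and 21.1. Prdm9, which marks recombination sites in meiosis, was at 26.4, 50.6, 48.2 and 39.4 in coding sequence. Prdm13 had a region with the same edges in all libraries, chr4:21678138-21678378, at 41.6, 43.9, 44.6 and 39.6. Prdm10 and Prdm11 had mean percentiles of 43.9 and 39.2. Prdm4 was at 35.9, 16.2, 34.6 and 75.1, the last in a coding region that knockout 2 alone listed and the others in the 3' untranslated region.

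Seen by region, 55 of 120 had a peak in all 4 libraries (45.8%; 42.3% of all regions), 16 in exactly 3 (13.3%; 14.2%), 11 in 1 library of each genotype (9.17%; 10.6%) and 34 in a single library (28.3%; 28.3%). The shares are near those of all regions. The wild-type-only regions numbered 3, in Prdm1, Setd3 and Setdb2 (2.50%; 2.04% of all regions), and the knockout-only region was the 1 of Kmt2c (0.833%; 2.49%). The members' regions shared by all libraries had a median mean strength of 72.1, those of exactly 3 libraries 50.7, those of 2 libraries 27.3 and those of a single library 33.3. Over all regions of the lists it also fell, from 62.2 in all libraries to 31.3 in exactly 3. It was 22.8 to 23.6 for the patterns of 2 libraries and 16.2 in a single library. For the members' regions shared by all 4 libraries the percentile ranged over a median of 7.83 points between libraries. Over all 6827 such regions it was 12.8 points. The members' shared regions also lay higher on the scale, 30.9% of them reaching the strongest 10% of a list, against 16.2% of all shared regions. The part of this in the smaller range was not tested.

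**Figure D4:**
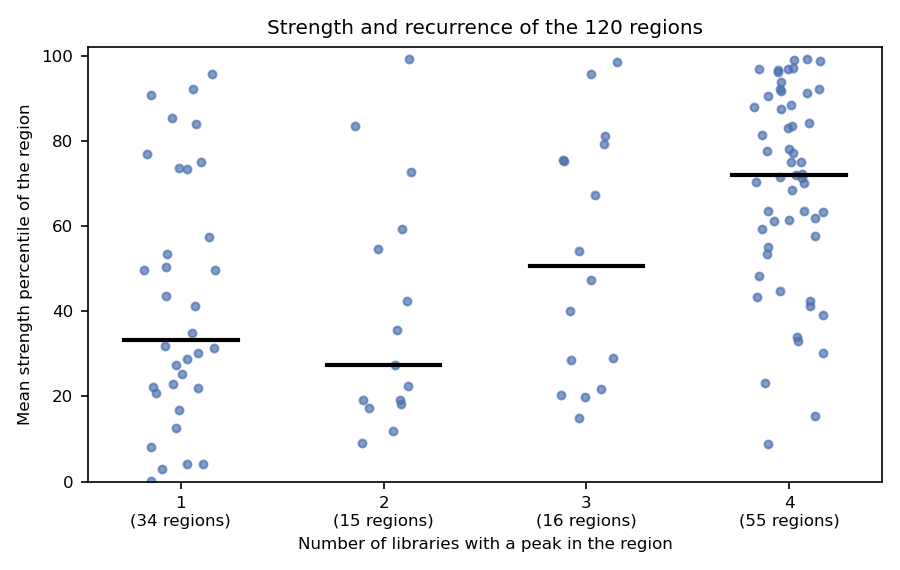
Mean strength percentile of each of the 120 regions against the number of libraries with a peak in it; points are regions, spread sideways at random, and bars are medians. The median is 72.1 for the 55 regions found in 4 libraries and 33.3 for the 34 found in 1, with single regions above 90 in every column.

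Of the 65 regions that lacked a peak in at least 1 library, 6 reached the strongest 10% of another list (9.23%; 5.34% of all such regions). These were regions of Kmt2a (missing in knockout 1), Kmt2b (missing in wild type 1), Setd2 (missing in wild type 2 and knockout 1), Kdm2a (wild type 1 alone), Kmt5b and Setd5 (both knockout 2 alone). None of the 6 was in both libraries of 1 genotype alone, a pattern of 11.1% of all 497 such strong regions, so with 6 regions little can be read from the 0. Dividing the regions common to 2 libraries by those listed in at least 1 of them gave 0.684 within wild type, 0.606 within the knockout and 0.643 to 0.676 for the 4 pairs across genotypes, so the knockout pair was the least alike. Over all regions the same measure was 0.654, 0.585 and 0.613 to 0.644.

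The edges of shared regions were close in some cases and far apart in others. Of the 55 shared regions, 46 had exactly 1 peak in each library; the range of their starts over the 4 libraries had a median of 60 bp, as did that of their ends, and 21 of the 46 stayed within 60 bp at both edges. The Kmt2b region with 1 small peak in knockout 2 differed by 2723 bp at its start and 3261 bp at its end. In 2 of them, those of Prdm13 and Setd6, both edges were the same in all libraries. Long exon blocks were frequent: 19 regions in 14 genes held a block of 1000 bp or more (15.8% of the members' regions; 9.68% of all regions), 14 of them in coding sequence, and 11 of the 19 had a mean strength of 90 or more. Of the members' regions, 48.3% lay in the last 10% of the RefSeq gene span and 7.50% in the first 10%, near the 47.1% and 9.97% of all 13895 regions placed in that way. Of the members, 6 had 5 or more regions (Kmt2d, Kmt2a, Kdm5b, Setd5, Kmt2c and Kmt2e), or 13.6% of the members against 1.66% of all genes, and 17 had a single region (38.6%; 60.7% of all genes).

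Related genes outside the naming rule were listed for comparison. Of 21 other lysine methyltransferases and demethylases, 14 had a peak and 11 had one in all libraries, among them Ash1l at a mean percentile of 81.0, Dot1l, the H3K79 methyltransferase, at 78.4, Riox1 at 90.5, and Jarid2, a Polycomb partner without demethylase activity, at 51.6. Whsc1 and Whsc1l1, older symbols of Nsd2 and Nsd3, were on that list and had no entries of their own. Of 13 genes listed with the H3K4 methyltransferase complexes, most of them for subunits, 8 had a peak and 7 had one in all libraries. These 7 were Wdr5, Men1, Hcfc1, Cxxc1, Wdr82, Ncoa6 and Bptf, the last not a subunit but a reader of the mark that belongs to a remodelling complex. Hcfc1, a scaffold that binds Setd1 and Kmt2 enzymes, had a mean of 97.3, and Wdr5, a subunit common to all these complexes, 89.3; Ash2l, Rbbp5 and Dpy30 had no peak. Of 9 arginine methyltransferases, 7 had a peak and 5 had one in all libraries, Prmt5 at a mean of 94.2 and Carm1 at 87.2. On these 3 lists no gene was wild-type-only and none was knockout-only. Among all genes these patterns made up 1.56% and 2.27%, so little can be read from their absence on lists this short.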

How the data were processed

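The 4 peak lists were grouped by the genotype label. Per the submitters' processing notes, HISAT2, HOMER and mm10 were used, in unstated roles; a peak caller or input is not given in the sources used here. Peaks were called per library, and each deposited peak has a p-value, log10 values, a fold enrichment (a ratio), an annotated gene and exon blocks, per the file headers. These values are the authors'.

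Peaks off the reference chromosomes (3 to 6 per list) were left out. Peaks of a gene were joined when their exon blocks shared 1 bp or more. Simulated lists with 1 peak per gene, unchanged blocks and small shifts checked that this step runs as written. They held no split or merged peaks, so they do not show how well such peaks are joined. Starts are printed 1-based. Strength ranks all peaks of a list by p-value with ties at their mean rank, so p-values without a finite log10 tie at the top. All members could be named: library values were planned for those following the genotype, the extremes of each subfamily, those with most regions or in 2 or 3 libraries, and stem cell regulators, and the rest were added after their values were seen. The members and lists were chosen with earlier results of these data known. RefSeq (GRCm38.p6) gave positions for 44 members by symbol and start windows for 33; 341 of the 354 peaks overlapped the RefSeq gene, and the others belong to Kdm5b and Setd1a. Python 3.11.15, numpy 2.4.6 and pandas 2.3.3 were used. Alternatives were an adjusted p-value limit, stronger peaks, equal list lengths, other joining rules, strength by fold, shares by base pairs and leaving out each library.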

Additional observations from a re-analysis of the deposited data

How the results depend on the processing

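The 32 members found in all libraries were 32 with an adjusted p-value under 0.05, 31 with lists of equal length and 22 in the stronger 50% of each list, all among the 32. Values that moved otherwise were small counts and genotype differences, and the cause was not tested. The stronger 50% gave 2 knockout-only genes (Kmt5b and Setd5), Kdm6a in place of Setd3 as the wild-type-only gene, 1 wild-type-only and 0 knockout-only regions, and 2 more members in the knockout than in wild type. Knockout-only regions, the 1 of Kmt2c otherwise, were 0 with lists of equal length, 3 with a reciprocal overlap of 50% and 0 with peaks within 100 bp joined. By fold, the median strength of the best peaks was higher by 4.95 points in the knockout, against 0.0744 by p-value. Over all peaks of the members, the median by p-value was higher by 5.76 points in the knockout, a measure not run under the alternatives. Of 85 values under alternatives, 63 stayed within 1.5 times the count or within the spread between libraries. Leaving out each library in turn gave 32 to 34 genes and 58 to 62 regions in all remaining libraries, 1 to 3 wild-type-only and 0 to 2 knockout-only genes, 6 to 12 wild-type-only and 4 to 13 knockout-only regions, where a genotype was judged from 1 list. The knockout minus wild-type difference then ran from -1.5 to 0.5 members, from 0.0689 to 3.50 percentage points in coding sequence, from -4.47 to 0.795 in the 3' untranslated region and from -2.51 to 2.66 in median strength. No paired analysis was possible because only knockout titles are numbered, and nothing was fitted. Depth is unknown, so a missing peak cannot be told from one missed for lack of reads.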
